A study of Mus with 30 samples.

Results

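Merged loci with a single transcript model were examined in cardiac tissue of C57BL/6 mice, an inbred laboratory strain. They were chosen by identifier. Of the transcripts present in the tables of all 30 mice, those whose identifier starts with MERGE were grouped into loci by the identifier without its last number, and a locus was kept when exactly 1 of its models was present in all 30 tables. This gave 3070 loci, each with 1 model, out of 28298 transcripts present in all tables. The remainder were 3886 merged models from 1293 loci with 2 or more models and 21342 transcripts with an Ensembl identifier.

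The mice were male and 8 weeks old in the groups the methods describe (Control, Ang II and gastrodin), and RNA with the ribosomal RNA removed was sequenced from 5 mice in each of 6 groups. The Control group received saline in place of both infusion and drug for 28 days, and the Ang II group saline in place of the drug. For the same time, the Ang II group was infused with 500 ng/kg/min of angiotensin II, a blood pressure-raising hormone. The 4 other groups received the same infusion together with ethoxysanguinarine, baicalin or gastrodin at 5 mg/kg/day, or valsartan at 10.4 mg/kg/day. Ethoxysanguinarine is a plant alkaloid derivative, baicalin a plant flavonoid glycoside, gastrodin a phenolic glycoside of the orchid Gastrodia elata, and valsartan a clinically used drug that blocks the receptor of Ang II. No group received a drug without Ang II, and the groups that received a drug are compared here with the Ang II group, whose 5 mice all these comparisons share. The labels do not say whether the mice of a group were housed or processed together. Levels are values scaled for transcript length and library size, read here as FPKM.

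A transcript assembler joins overlapping reads into models of the RNA they came from, and the models of several libraries can be merged into 1 common set. Such a set can hold RNA that the annotation lacks, such as long noncoding RNA, other isoforms of known genes, retained introns and pieces of longer transcripts. Where several models share a locus, reads that fit more than 1 of them have to be divided, so that a model can gain what another loses. A locus with 1 listed model has no second listed merged model to divide with, although it can still overlap an annotated transcript. The library kit named in the labels does not mark strand, so RNA from opposite strands of a locus cannot be told apart. The identifiers of the merged models carry no gene name, so the members are given by identifier, without position or function, and the cardiac origin of the samples was not checked against marker genes.

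The identifiers themselves show that many of these loci were assembled with more than 1 model. Of the 3070 members, 1545 carried model number 1 and 1525 (49.7%) a higher number, among them 93 with a number of 10 or more and a highest number of 52. In 361 members, further models of the same locus were listed in some of the tables, 467 models in all, whose highest median over the mice that list them was 1.96 FPKM. The other 2709 had no other model in any table. Members with model number 1 had a median level of 1.02 FPKM, 33.9% of them were at 0 in at least 1 mouse, and their median coefficient of variation (CV, the SD as a percentage of the mean) over the 30 mice was 46.9%. Members with a higher model number had a median level of 1.27 FPKM, with 60.3% at 0 in at least 1 mouse and a median CV of 72.1%. Members with a higher number thus had the higher median level, more zeros and the wider spread.

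Most members were of low abundance. The median over the 30 mice was 1.12 FPKM for the middle member, 0.638 and 2.37 FPKM at the 25th and 75th percentile, and 10.8 FPKM at the 95th. A median of at least 1 FPKM was found in 1708 members (55.6%), of at least 10 in 163 (5.31%) and of at least 100 in 12. The middle level was 1.10 FPKM for models of loci with 2 or more models and 1.56 FPKM for Ensembl transcripts. In a mouse, the members summed to between 16689 and 23075 FPKM, which was 2.60% to 3.77% of all listed values of that mouse.

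Members differed between mice more than Ensembl transcripts of like level and less than models of loci with 2 or more models. The median CV was 58.3% for members, 82.1% for models of loci with 2 or more and 44.3% for Ensembl transcripts. At a median of 1 to 5 FPKM it was 46.9% for 1362 members, 63.9% for the models of shared loci and 39.7% for Ensembl transcripts. At 5 to 50 FPKM the values were 37.2% for 323 members, 46.5% and 20.9%, and above that 22.2% for 23 members, 64.4% and 13.3%. The same order was found within groups over all levels. There the median SD of log2(FPKM + 1), pooled over the 6 groups for each transcript, was 0.46, 0.67 and 0.36. These SDs were not matched for level. These are descriptions, as members with a shared library are not independent of each other.

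**Figure D1:**
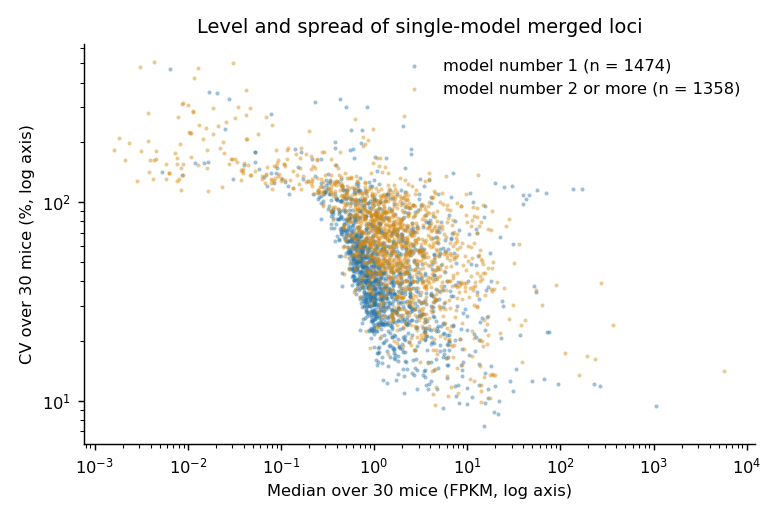
Median level (x axis, FPKM, log axis) and CV over the 30 mice (y axis, percent, log axis) of the 2832 members with a median above 0, blue for model number 1 and orange for a higher number. Spread falls with level. Over members of every level, including those with a median of 0, the median CV was 72.1% for a higher number and 46.9% for model number 1.

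Exact zeros were common. In 1442 members (47.0%) at least 1 mouse was at 0, and in 489 (15.9%) at least 10 mice were, up to 24 of 30. For models of loci with 2 or more these shares were 57.4% and 20.5%, and for Ensembl transcripts 24.4% and 5.52%. Zeros differed at like level too. Among members with a median from 5 to 50 FPKM 22.3% were at 0 in at least 1 mouse, against 5.23% of Ensembl transcripts of that level. Within a single mouse between 9.38% and 17.4% of members were at 0. In 30 of 30 mice this share was below that of the models of shared loci and above that of Ensembl transcripts. An exact 0 in such a table can be a failed estimate as well as a missing transcript, so zeros are given as listed values. The depth of each library is unknown.

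**Figure D2:**
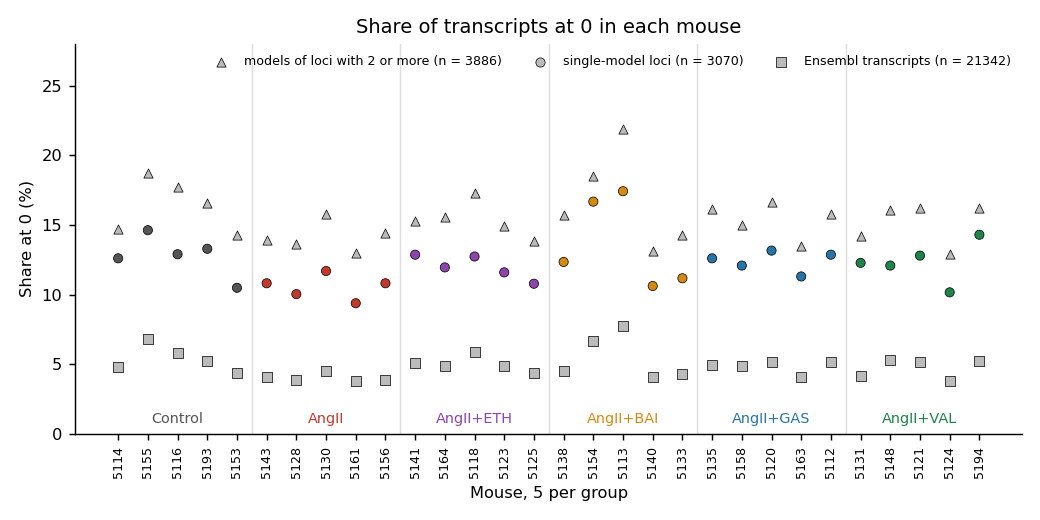
Share of transcripts at 0 (y axis, percent) in each of the 30 mice (x axis, by mouse number, 5 per group). Circles in the colour of the group are the 3070 members, triangles the 3886 models of loci with 2 or more models and squares the 21342 Ensembl transcripts. The circles lie between the triangles and the squares in every mouse, and mice 5154 and 5113 of the baicalin group have the highest shares of members at 0.

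The number of members at 0 lay between 322 and 449 in Control, 288 and 359 in Ang II, 331 and 395 with ethoxysanguinarine, 326 and 535 with baicalin, 347 and 404 with gastrodin, and 312 and 439 with valsartan. The Ang II mice had the lowest median of the 6 groups, with 332 members at 0 against 367 to 396 in the others. This difference cannot be told apart from the way the tables were filtered. Judged from the listed means, each table holds a transcript only where its mean reached 0.5 FPKM in Ang II or in the other group of that table. A transcript below 0.5 in Ang II is therefore present in all 30 tables only when all 5 other groups reach 0.5. Accordingly, 112 members (3.65%) had a group mean under 0.5 in Ang II, and all 112 were at 0.5 or more in the 5 other groups. In the other groups 326 to 369 members (10.6% to 12.0%) had a group mean under 0.5, and 62 members were under 0.5 in all of these 5 groups. A set of 2181 members had a mean of at least 0.5 in all 6 groups, and the calls below are given for this set too.

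**Figure D3:**
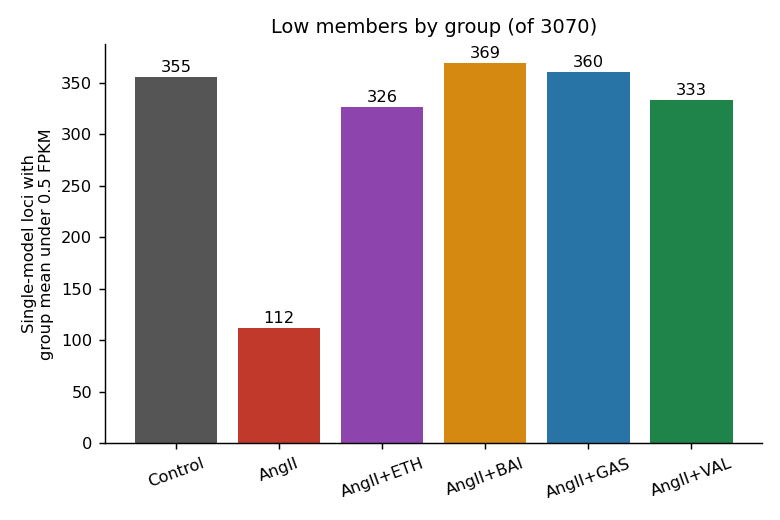
Number of the 3070 members with a group mean under 0.5 FPKM (y axis, from 0) in each of the 6 groups (x axis). Ang II has 112 such members and the other groups have 326 to 369. This difference cannot be told apart from the filter on the deposited tables, which involves Ang II each time.

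The same filter lets a single high Ang II mouse bring a transcript into all 30 tables, which a single high mouse of another group does not. In 34 members most of the summed value lay in a single mouse, and 25 of these mice were Ang II mice, whereas 2 were Control mice, 4 baicalin mice and 1 each from the other groups. Of these 34 members, 2 reached a mean of 0.5 in all 6 groups, so the excess of Ang II mice cannot be told apart from the filter. MERGE.15454.4, picked after its values were seen, is an example. It was at 98.9 FPKM in Ang II mouse 5128 and at no more than 0.508 in the 4 other Ang II mice. In the other groups its highest value was 2.96 FPKM, in a Control mouse. MERGE.540.1, also picked after its values were seen, was at 325 FPKM in Ang II mouse 5130 and at 40.4, 20.4, 7.80 and 0.176 in the 4 others. Its highest value elsewhere was 26.7 FPKM. The high Ang II mean of MERGE.15454.4 thus stands for 1 mouse. That of MERGE.540.1 does not rest on mouse 5130 alone. This member also reached a mean of 0.5 in all 6 groups, the lowest being 2.76 FPKM with ethoxysanguinarine.

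The 12 members with a median of at least 100 FPKM differed in spread, and the 3 highest are given first. MERGE.141.2 had a median of 5749 FPKM, with a lowest mouse at 3847 (ethoxysanguinarine) and a highest at 7623 (gastrodin). Its group means ran from 5476 ± 278 (SD, n = 5) in Ang II to 6406 ± 949 (SD, n = 5) with gastrodin, and the 6 groups overlapped. MERGE.24073.1 had a median of 1055 FPKM and a CV of 9.39%, with all mice between 905 and 1236. MERGE.20088.2 had a median of 364 FPKM and a CV of 24.0%. Its mean was 271 ± 57.2 in Control and 357 ± 62.6 in Ang II (SD, n = 5 each), and its highest mean was 442 ± 81.9 with ethoxysanguinarine. None of these 3 members passed the F test over the 6 groups after adjustment, with adjusted p of 0.930, 0.672 and 0.502 in the order given (limma).

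Among members with a median of at least 1 FPKM, MERGE.14862.1 varied least, between 12.5 and 17.3 FPKM in 30 mice (CV 7.47%), followed by MERGE.2827.1, between 17.2 and 25.6 FPKM (CV 8.56%). The highest CVs came from 1 or 2 mice. MERGE.21556.9 was at 106 FPKM in Control mouse 5153 and 92.6 in gastrodin mouse 5158, with a median of 2.08 FPKM (CV 273%). MERGE.10565.1 was at 53.4 FPKM in Control mouse 5116 and at 4.48 or less in the other mice (CV 241%).

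Some members were listed at 0 in most mice and at a high level in the others. MERGE.6701.3 was at 0 in 23 mice, while the 7 others had a median of 111 FPKM. These 7 lay close together, at 121 and 113 FPKM in 2 Control mice, 104 in 1 Ang II mouse, 105 and 116 in 2 ethoxysanguinarine mice, 110 in 1 gastrodin mouse and 111 in 1 valsartan mouse. No baicalin mouse was above 0. MERGE.3105.3 was likewise at 0 in 23 mice, and its 7 others ran from 10.8 FPKM in a Control mouse to 232 in an Ang II mouse. Neither was above 0 often enough for a test of 2 groups, and in the F test over 6 groups their adjusted p was 0.934 and 0.873 (limma).

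In 145 members (4.72%) at least 1 group was at 0 in all 5 mice, against 2.47% of all transcripts in the 30 tables, 6.18% of models of loci with 2 or more and 1.47% of Ensembl transcripts. Of the 145, 10 were above 0 in all 5 mice of another group (0.326% of members, against 0.240% of all transcripts), and 4 were at 1 FPKM or more there (0.130% against 0.0636%). These 4 were singled out after their values were seen, so no test is given for the group that defined them. MERGE.21859.2 was at 0 in all valsartan mice and at 9.42 to 11.5 FPKM in all ethoxysanguinarine mice. In the Ang II group it was at 11.4 and 13.6 FPKM in 2 mice and at 0 in 3. MERGE.3230.3 was at 0 in all ethoxysanguinarine mice and at 3.39 to 6.29 FPKM in all valsartan mice. MERGE.10249.7 was at 0 in all gastrodin mice and at 1.93 to 9.44 FPKM with valsartan, and MERGE.16247.1 was at 0 in all baicalin mice and at 1.13 to 2.19 FPKM with valsartan. All 4 were at 0 in some mice of Control and of Ang II, so zeros also occurred outside the group that had them throughout.

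One abundant member varied widely between mice in all groups except gastrodin. MERGE.13406.1, singled out after its values were seen, had a median of 171 FPKM and ran from 76.6 to 1684. Its values were 1684, 344, 288, 494 and 124 FPKM in Control, 139, 300, 168, 249 and 1061 in Ang II, and 621, 131, 109, 116 and 118 with ethoxysanguinarine. With baicalin they were 859, 108, 180, 77.2 and 76.6, with gastrodin 256, 153, 227, 165 and 215, and with valsartan 1272, 107, 88.9, 98.8 and 175. A single mouse stood above the rest in 5 of the 6 groups, namely 5114 in Control, 5156 in Ang II, 5141 with ethoxysanguinarine, 5138 with baicalin and 5131 with valsartan. No gastrodin mouse did.

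Some other members ranked the same mice highest. Of the 162 other members with a median of at least 10 FPKM, 14 had at least 4 of these 5 mice among their own 5 highest, and 10 had all 5. In 13 of the 14 the model number was 1, and their medians ran from 10.3 to 137 FPKM. Of 218 models of loci with 2 or more models at that level 0 had at least 4 of these mice among their 5 highest, and of 2744 Ensembl transcripts 16 did. MERGE.8942.1, the most abundant of the 14, was at 1154, 859, 675, 622 and 1201 FPKM in these 5 mice and at 65.5 to 356 in the 25 others. As the 14 were chosen for this ranking, their values in the 5 mice are a description. The 5 mice belong to 5 groups, and for both named members the 4 other mice of each of these groups were lower. In the F test over 6 groups the adjusted p was 0.870 for MERGE.13406.1 and 0.936 for MERGE.8942.1 (limma).

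MERGE.13257.21, also picked after its values were seen, varied in the other direction. It had a median of 275 FPKM, and 4 of 5 ethoxysanguinarine mice, all Control mice and all baicalin mice lay between 237 and 342. In Ang II it was at 279 and 278 FPKM in 2 mice but at 54.5, 8.31 and 66.8 in 3. It was also at 22.7 FPKM in 1 ethoxysanguinarine mouse, at 126 and 144 in 2 gastrodin mice and at 156 in 1 valsartan mouse. Its mean was 300 ± 33.0 FPKM in Control and 137 ± 131 in Ang II (SD, n = 5 each), a difference of -1.95 ± 0.82 (SE) on the log2(FPKM + 1) scale with an adjusted p of 0.524 (limma).

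**Figure D4:**
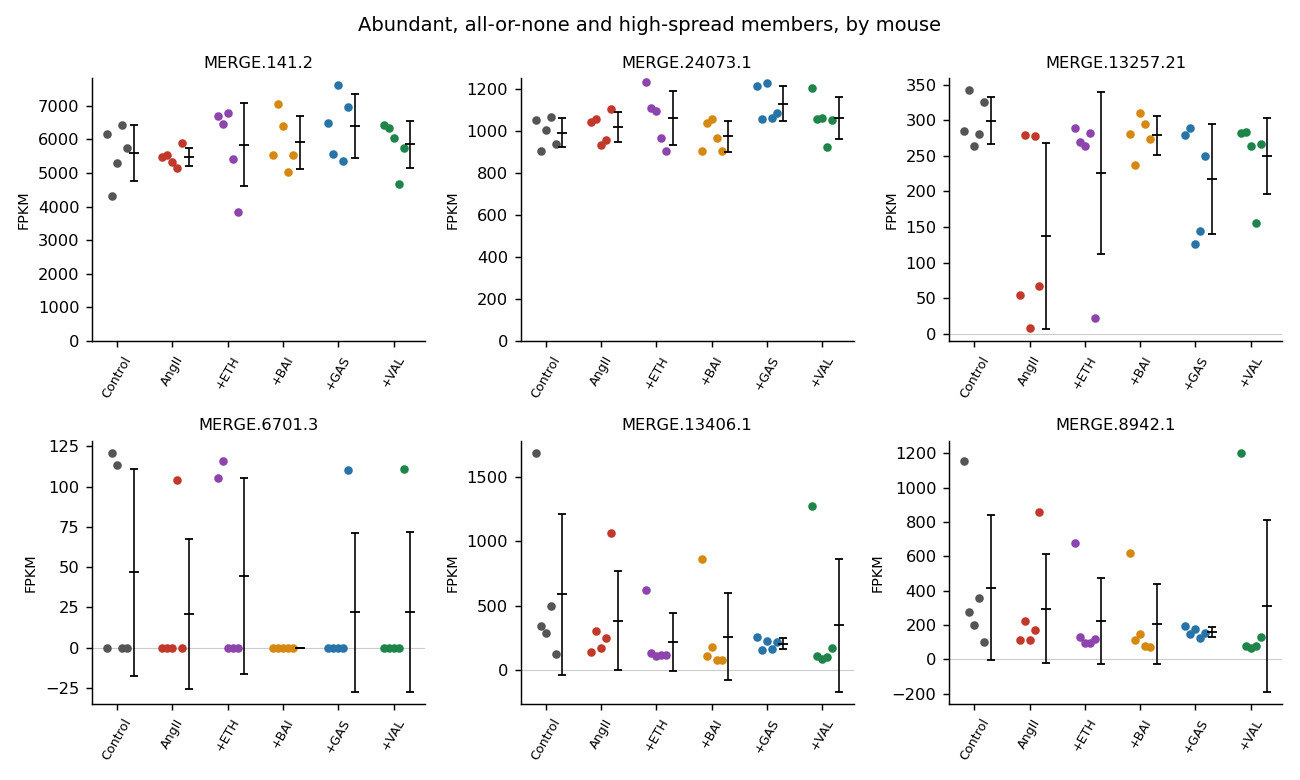
FPKM (y axes) of 6 members in the 6 groups (x axes, with +ETH for ethoxysanguinarine, +BAI for baicalin, +GAS for gastrodin and +VAL for valsartan). Each point is a mouse, and the bar beside a group is its mean with 1 SD, which can reach below 0. MERGE.141.2 and MERGE.24073.1 stay within a narrow band, MERGE.13257.21 drops in some mice, MERGE.6701.3 is at 0 or above 100, and MERGE.13406.1 and MERGE.8942.1 have 1 high mouse in each group but gastrodin.

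To see which members differed between groups, the log2(FPKM + 1) values of each pair of groups entered limma where 5 or more of their 10 libraries reached 1 FPKM, with Benjamini-Hochberg adjustment over all transcripts tested. A transcript is called here when its adjusted p is under 0.05. A second count uses the study's thresholds, a fold change of 2 with an unadjusted p under 0.05. Both are taken here from limma on the log2(FPKM + 1) scale, whereas the paper's test was DESeq. On this scale a member of low level needs more than a 2-fold change in FPKM to pass. Between 1826 and 1864 members were tested in a comparison, and 1206 to 1244 were too low. The tested members include those that passed the filter through 1 high group, so counts over them describe the tested members only.

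Between Ang II and Control 1 of 1849 tested members was called, against 0.0381% of all 18354 transcripts tested. It was MERGE.10563.1. In Control it was at 3.63, 3.61, 3.47, 3.20 and 4.40 FPKM, and in Ang II at 0.313, 0.364, 0.118, 0.308 and 0.0878. All Control mice lay far above all Ang II mice, with a difference of -1.91 ± 0.13 (SE) on the log2(FPKM + 1) scale and an adjusted p of 0.000289 (limma). It passed the filter on low values through the 5 Control mice alone, so it had to differ to be tested, and with no filter its adjusted p was 0.00044. Each drug group held both kinds of mouse. It was at 3.22 FPKM in 1 ethoxysanguinarine mouse, 2.83 in 1 baicalin mouse, 2.67 in 1 gastrodin mouse and 3.18 and 3.50 in 2 valsartan mice, and at 0.318 or less in all 15 other mice of these groups. No mouse lay between 0.364 and 2.67 FPKM. The mean in Ang II was 0.238 FPKM, which makes it one of the 112 members that were listed throughout because the 5 other groups reached 0.5. This listing required a high mouse in each drug group, so the presence of such mice there is not a result. It stayed called when any Ang II mouse was left out (adjusted p 0.00086 to 0.0017), was not tested when a Control mouse was left out, and had an adjusted p of 0.0548 when all 6 groups were fitted together.

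Of the next 3 members in this comparison, 2 passed under other settings only. MERGE.11152.1 was at 3.08, 3.95, 3.99, 2.37 and 3.12 FPKM in Control and at 7.70, 9.18, 7.80, 6.93 and 6.13 in Ang II. The 2 groups did not overlap, with a difference of 1.00 ± 0.15 (SE) in log2(FPKM + 1) and an adjusted p of 0.0996 (limma), or 0.00306 in the fit of all 6 groups. MERGE.7589.3 was at 0 in 4 Control mice and at 1.90 FPKM in the fifth, 5193, and at 2.41 to 6.88 in Ang II (adjusted p = 0.140 by limma, 0.0183 without mouse 5193 and 0.0304 in the fit of all 6 groups). Without mouse 5193 it met the filter on low values through the Ang II mice alone, so it had to differ to be tested. MERGE.19438.7 was at 1.59 to 2.65 FPKM in Control and at 0.0185 to 1.21 in Ang II, and did not pass (adjusted p = 0.218, and 0.0584 to 0.534 under the alternatives).

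Under the study's thresholds 20 members were higher in Ang II than in Control and 17 lower, which is 1.08% and 0.919% of the tested members, against 0.795% and 0.921% of all transcripts. Of the members with a mean of at least 0.5 in all groups, 16 were higher and 15 lower, and 0 were called, with 182 of 1708 (10.7%) at an unadjusted p under 0.05 (limma), where 9.13% of all transcripts were. Without Control mouse 5193, 3 members were called, without Ang II mouse 5161 2, and without any of the Control mice 5114, 5155, 5116 and 5153 there were 0. MERGE.10563.1 lies outside the set at 0.5 or more and was not tested when a Control mouse was left out. It could not be called in either case.

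With ethoxysanguinarine 1 of 1864 tested members was called against Ang II, where 0.132% of all transcripts were. This member, MERGE.19959.1, was at 3.42, 3.02, 2.83, 3.46 and 3.98 FPKM with ethoxysanguinarine and at 0.793, 1.34, 1.06, 1.23 and 1.52 in Ang II. All treated mice lay above all Ang II mice, with a difference of 0.99 ± 0.13 (SE) in log2(FPKM + 1) and an adjusted p of 0.0219 (limma). Control was wide, from 0 to 6.74 FPKM, and overlapped both. The level with baicalin, 2.23 to 5.15 FPKM, also lay above Ang II (adjusted p = 0.173), and in the gastrodin and valsartan groups it ran from 0 to 4.35 and from 0.414 to 5.18 FPKM. The call was lost when mouse 5128, 5130, 5161, 5141, 5123 or 5125 was left out (adjusted p 0.0511 to 0.0750) and in the fit of all 6 groups (0.577).

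MERGE.9833.1 was at 1.70 to 3.25 FPKM with ethoxysanguinarine and at 0.776 to 1.29 in Ang II (adjusted p = 0.0813, and 0.0488 without mouse 5164). MERGE.22499.2 was lower with the drug, at 5.99 to 10.1 against 11.9 to 15.6 FPKM, and so was MERGE.9428.1, at 3.42 to 6.07 against 6.52 to 12.5 FPKM, without overlap in either. Neither passed, with adjusted p of 0.187 and 0.253 (limma). Under the study's thresholds 31 members were higher (1.66%) and 25 lower (1.34%), against 0.965% and 0.91% of all transcripts. In the set at 0.5 or more in all groups there were 26 higher and 23 lower, and the same single call. Leaving out mouse 5156 gave 6 calls, leaving out 5164 gave 2, and leaving out 5161, 5141, 5123 or 5125 gave 0.

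With baicalin 2 of 1839 tested members were called against Ang II, where 0.0165% of all transcripts, 3 in number, were. Of the 2 members, 1 lies at a locus with further models listed in some tables. MERGE.2160.10 was at 26.6, 21.6, 24.5, 23.4 and 21.5 FPKM with baicalin and at 9.47, 7.87, 11.5, 11.9 and 7.43 in Ang II. In no other group did a mouse reach the lowest baicalin mouse, the next being an ethoxysanguinarine mouse at 20.8 FPKM. The difference from Ang II was 1.22 ± 0.14 (SE) in log2(FPKM + 1), with an adjusted p of 0.0485 (limma). It was called when Ang II mouse 5130 or 5161 was left out, and lost when any of the 8 other mice was (adjusted p 0.0522 to 0.177) and in the fit of all 6 groups (0.193).

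MERGE.10021.3, the other called member, was at 40.1, 31.8, 45.4, 64.7 and 33.6 FPKM with baicalin and at 4.03, 0, 2.55, 3.05 and 1.66 in Ang II. The difference was 3.90 ± 0.41 (SE) in log2(FPKM + 1), with an adjusted p of 0.0457 (limma). In the other groups it was either low or high by mouse. Control had 60.2 FPKM in mouse 5153 and at most 4.51 in the rest, ethoxysanguinarine had 53.5, 31.2 and 16.8 in 3 mice, gastrodin 75.2, 71.7 and 63.7 in 3, and valsartan 41.5 and 36.3 in 2. The remaining mice of these groups were at 0 to 4.61 FPKM. Its call was lost when Ang II mouse 5156 or any baicalin mouse was left out (adjusted p 0.0594 to 0.111), with a pseudocount of 0.1 (0.264) and in the fit of all 6 groups (0.168). Baicalin mice 5113 and 5154, which had the most members at 0, were left out together, and 0 members were then called.

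MERGE.21472.1 was lower with baicalin, at 3.34 to 4.63 against 5.94 to 7.56 FPKM, without overlap (adjusted p = 0.173). MERGE.8573.6 was at 0, 0, 0.435, 1.06 and 0.729 FPKM with baicalin and at 1.62 to 2.48 in Ang II (adjusted p = 0.255). Under the study's thresholds 16 members were higher (0.870%) and 30 lower (1.63%), against 0.772% and 0.992% of all transcripts. In the set at 0.5 or more in all groups the numbers were 13 and 22, with the same 2 calls. Leaving out mouse 5130 gave 3 calls, 5143, 5128 or 5133 gave 1, and 5156, 5138, 5154, 5113 or 5140 gave 0.

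With gastrodin 1 of 1835 tested members was called against Ang II, where 0.022% of all transcripts were. MERGE.4380.1 was at 2.27, 3.07, 2.50, 3.23 and 2.93 FPKM with gastrodin and at 8.56, 8.23, 6.09, 5.82 and 7.94 in Ang II. All gastrodin mice lay below all Ang II mice, with a difference of -1.12 ± 0.13 (SE) in log2(FPKM + 1) and an adjusted p of 0.0391 (limma). The Control mice ran from 1.66 to 6.54 FPKM and overlapped both groups, and so did those of the 3 other drug groups. The call was kept when Ang II mouse 5161 was left out and lost when any of the 9 other mice was (adjusted p 0.0537 to 0.194). In the fit of all 6 groups the adjusted p was 0.669.

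MERGE.7252.5 was higher with gastrodin, at 3.91 to 4.90 against 1.93 to 2.90 FPKM in Ang II, without overlap (adjusted p = 0.356). Its values with baicalin, 3.65 to 5.20 FPKM, also lay above those of Ang II (adjusted p = 0.255). MERGE.13862.13 was at 1.25 to 3.83 FPKM with gastrodin and at 0.637 to 1.15 in Ang II (adjusted p = 0.436, and 0.0404 without mouse 5112). MERGE.8573.6, lower in the baicalin comparison too, was at 0 in 3 gastrodin mice and at 0.886 and 1.54 FPKM in 2 (adjusted p = 0.688). Both comparisons use the same Ang II mice.

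Under the study's thresholds 6 members were higher with gastrodin (0.327%) and 23 lower (1.25%), against 0.534% and 0.716% of all transcripts. These shares rest on the unlike selection given above. In the set at 0.5 or more in all groups there were 5 higher and 17 lower, and the same call. At an unadjusted p under 0.05 without a fold threshold 51 members were higher and 80 lower (48 and 67 in that set), which is 7.14% of the tested members and near the 6.21% of all transcripts. The number of calls was 0 when mouse 5143, 5130, 5156, 5135 or 5163 was left out, and 1 when any other was, although not always the same member.

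With valsartan 0 of 1826 tested members were called against Ang II by limma, where 0.022% of all transcripts were. At an unadjusted p under 0.05, 60 were higher and 61 lower, which is 6.63% of the tested members and near the 6.23% of all transcripts, and limma with array weights called 1. In the set at 0.5 or more in all groups limma called 0 as well, and before adjustment the p was under 0.05 for 57 that were higher and 54 that were lower. The smallest p belonged to MERGE.8554.3, at 0, 0, 0, 1.12 and 2.33 FPKM with valsartan and at 6.47, 10.3, 12.2, 9.64 and 8.14 in Ang II. The groups did not overlap, with a difference of -2.78 ± 0.36 (SE) in log2(FPKM + 1) and an adjusted p of 0.0524 (limma). In Control it was at 0 in 3 mice and at 6.96 and 6.61 FPKM in 2. Leaving out mouse 5161, 5124 or 5194 gave 1 call, and for MERGE.8554.3 the lowest adjusted p, 0.0249, was reached without mouse 5194.

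MERGE.18417.5 was at 0 in 3 valsartan mice and at 2.43 and 2.53 FPKM in 2, against 3.29 to 8.12 in Ang II (adjusted p = 0.436). MERGE.15804.1 was at 1.45 to 4.17 FPKM with valsartan and at 0 to 1.41 in Ang II (adjusted p = 0.367), and in Control at 3.85 to 5.04 in 4 mice and 0.592 in mouse 5155. MERGE.5242.5 was at 3.01 to 6.06 FPKM with valsartan, while 1 Ang II mouse, 5161, was at 3.17 and the others at 0.567 or less (adjusted p = 0.423, and 0.0401 without that mouse). Without mouse 5161 it met the filter on low values through the valsartan mice alone, so it had to differ to be tested. Under the study's thresholds 12 members were higher (0.657%) and 17 lower (0.931%), against 0.703% and 0.676% of all transcripts, and 11 and 13 in the set at 0.5 or more in all groups.

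Over the 6 groups together an F test in limma called 3 of 2782 tested members, against 0.157% of all 24844 transcripts tested, and the same number in the set at 0.5 or more in all groups. At an unadjusted p under 0.05 there were 291 members (10.5%), or 217 (10.1%) in that set, and 9.49% of all transcripts. The 3 members, MERGE.11152.1, MERGE.23625.1 and MERGE.11126.1, all carried model number 1 and were at 0 in no mouse. In each of them the Control mice did not overlap with the Ang II mice.

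For MERGE.11152.1, whose Control and Ang II values are given above, the mean was 3.30 ± 0.68 FPKM in Control and 7.55 ± 1.13 in Ang II (SD, n = 5 each). The means of the drug groups lay between, at 6.09 ± 0.89 with ethoxysanguinarine, 4.37 ± 1.29 with baicalin, 5.51 ± 0.88 with gastrodin and 5.52 ± 0.35 with valsartan (SD, n = 5 each). Valsartan did not overlap with Ang II, and the other 3 did. None of the 4 differences from Ang II passed the adjustment, the smallest adjusted p being 0.282 with baicalin (limma). The F test gave an adjusted p of 0.0212, which rose to between 0.0502 and 0.0539 when mouse 5114, 5153, 5130 or 5118 was left out, and to 0.109 without the 5 mice that were high for MERGE.13406.1.

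MERGE.23625.1 was at 1.81, 1.67, 1.21, 1.48 and 2.05 FPKM in Control and at 0.704, 0.617, 0.663, 0.630 and 0.897 in Ang II. All Control mice lay above all Ang II mice, and the drug groups had means of 0.718 to 1.09 FPKM. MERGE.11126.1, called but outside the rule that named the others, was at 2.64, 1.90, 2.42, 1.57 and 2.74 FPKM in Control and at 1.15, 0.626, 1.02, 1.03 and 1.39 in Ang II, and lowest with gastrodin, at 0.756 ± 0.238 FPKM (SD, n = 5). The F test gave both an adjusted p of 0.0448 (limma). Each lost this call when any of 23 mice was left out. For MERGE.23625.1 the call was kept without mouse 5116, 5156, 5164, 5113, 5140, 5135 or 5163, and otherwise the adjusted p was 0.0521 to 0.128. For MERGE.11126.1 it was kept without mouse 5193, 5156, 5164, 5113, 5135, 5163 or 5194, and otherwise the adjusted p was 0.0521 to 0.122. The number of members called by the F test was 0 without mouse 5114, 5153, 5130 or 5118, 1 without any of 15 mice, and 5 without mouse 5156.

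**Figure D5:**
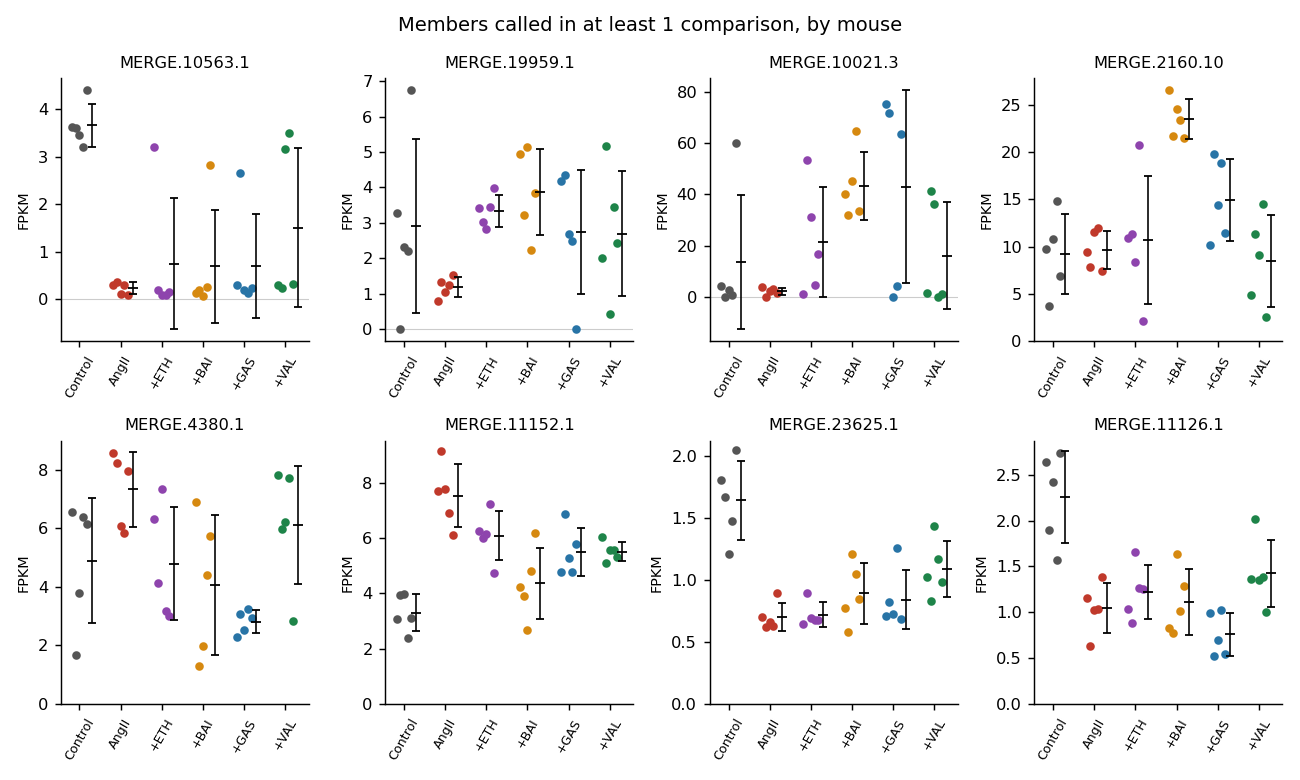
FPKM (y axes) of the 8 members called in at least 1 comparison, by group (x axes, drug groups marked +ETH, +BAI, +GAS and +VAL). Each point is a mouse, and the bar beside a group is its mean with 1 SD, which can reach below 0. Control and Ang II do not overlap in MERGE.10563.1, MERGE.11152.1, MERGE.23625.1 and MERGE.11126.1. Baicalin lies above all other groups in MERGE.2160.10 and gastrodin below Ang II in MERGE.4380.1. Some mice of other groups share the level of the called group in MERGE.10563.1 and MERGE.10021.3. In MERGE.10021.3 the gastrodin mean, 43.0 FPKM, was near the baicalin mean, 43.1 FPKM.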

How the data were processed

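Per the labels, rRNA-depleted RNA-seq was run on cardiac tissue of 30 mice, 5 in each of 6 groups. The authors deposited a table for each mouse, whose transcript values were taken as FPKM, since they are fractional with unequal sums. The unit, aligner, assembler, quantifier and annotation are not given in the sources used here. Per the submitters' notes the build was mm10 and limma was used, whereas the paper's test was DESeq. The labels hold 5 mice per group, and the paper speaks of 6. The values are not counts, so depth is unknown and no interval that needs it is given. Precision rests on the 5 mice of a group.

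Members were found by identifier, and they and the lists were chosen with earlier results of these data known. The test was limma 3.58.1 (R 4.3.3) with a trend, two-sided, on log2(FPKM + 1) of the 10 libraries concerned. A transcript was tested where 5 or more libraries reached 1 FPKM, with Benjamini-Hochberg adjustment over all transcripts tested. A filter of this kind was also used for the F test over 30 libraries. The pseudocount makes fold changes of low members too small. The script was tested on simulated data. Means and figures were made in Python 3.11.15 with matplotlib 3.10.9.

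Named were the 2 higher and 2 lower members with the smallest p in each comparison, the 2 with the smallest F test p, the 3 with the highest median, the 2 with the lowest and the 2 with the highest CV among medians of at least 1, and, among members at 0 in at least 10 mice, the 2 with the highest median of the mice above 0. Others are marked as chosen after their values were seen. Alternatives were quantile normalization, no trend, a pseudocount of 0.1, a filter at a mean of 5, no filter, array weights, all 6 groups in one fit, a fold change of 1.5, loci with a single model in any table, and each mouse left out. The labels pair no mice between groups. No gene names, positions or sequences of merged models were used here.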

Additional observations from a re-analysis of the deposited data

Results flagged for a closer look

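Within each group of 5 mice the highest and the lowest mouse were set against the rest, and a mouse is listed here when its gap to the nearest other mouse exceeded Dixon's 95% critical value of 0.71 of the group's range. Of 24 such checks on libraries 3 were listed, and of 234 on named members 49. The chance rate of about 1 in 20 holds for normally distributed values, and some of these groups hold exact zeros. A group with 4 mice at 0 and 1 above 0 is always listed. The members also include some picked for a wide spread. The 49 of 234 can therefore not be set against 1 in 20, and are not the share of members in general. No cause was tested for any of these.

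The members summed to 19598 FPKM in baicalin mouse 5138, with 16901 to 17540 in the 4 others, and to 22903 in valsartan mouse 5131, with 17090 to 17805 in the others. These are 2 of the 5 mice that were high for MERGE.13406.1. In gastrodin mouse 5112, 1580 members reached 1 FPKM, against 1773 to 1830 in the other gastrodin mice.

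The 5 mice stood out for MERGE.13406.1, with 1684 FPKM in 5114, 1061 in 5156, 621 in 5141, 859 in 5138 and 1272 in 5131. They did so too for MERGE.8942.1, with 1154 FPKM in 5114, 859 in 5156, 675 in 5141, 622 in 5138 and 1201 in 5131.

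Among the called members, MERGE.10563.1 stood out in ethoxysanguinarine mouse 5141 (3.22 FPKM), baicalin mouse 5133 (2.83) and gastrodin mouse 5158 (2.67), each beside 4 mice at 0.295 or less. MERGE.10021.3 did in Control mouse 5153 (60.2 FPKM), and MERGE.23625.1 in ethoxysanguinarine mouse 5164 (0.897 FPKM) and gastrodin mouse 5163 (1.26).

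Among the members named by their p, MERGE.7589.3 was at 1.90 FPKM in Control mouse 5193 and 0 in gastrodin mouse 5112. MERGE.9833.1 was at 1.29 FPKM in Ang II mouse 5128. MERGE.13862.13 was at 3.53 FPKM in Control mouse 5155 and 2.99 in baicalin mouse 5113. MERGE.15804.1 was lowest in Control mouse 5155 (0.592 FPKM) and valsartan mouse 5131 (1.45) and highest in gastrodin mouse 5135 (4.57). MERGE.5242.5 was at 3.17 FPKM in Ang II mouse 5161 and 3.57 in baicalin mouse 5140.

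Among the members named by level or spread, MERGE.2827.1 was at 17.7 FPKM in Ang II mouse 5130 and 24.96 in ethoxysanguinarine mouse 5125. MERGE.10565.1 was at 53.4 FPKM in Control mouse 5116 and 4.48 in gastrodin mouse 5112, and MERGE.21556.9 at 106 FPKM in Control mouse 5153 and 92.6 in gastrodin mouse 5158. MERGE.6701.3 was above 0 in 1 mouse of Ang II (104 FPKM), gastrodin (110) and valsartan (111). MERGE.3105.3 stood out in 1 mouse of Control (10.8 FPKM), Ang II (232), baicalin (40.0) and valsartan (52.0).

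Among the members chosen after their values were seen, MERGE.13257.21 was low in ethoxysanguinarine mouse 5125 (22.7 FPKM) and valsartan mouse 5124 (156). MERGE.540.1 was high in Control mouse 5116 (26.7 FPKM), Ang II mouse 5130 (325) and ethoxysanguinarine mouse 5118 (13.5). MERGE.15454.4 was high in Ang II mouse 5128 (98.9 FPKM), and its highest values in 3 drug groups were 0.404, 0.0669 and 0.266 FPKM. MERGE.3230.3 was at 13.9 FPKM in baicalin mouse 5138 and at 0 in the other baicalin mice.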

How the results depend on the processing

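In comparisons of 2 groups no direction of a named member was reversed under any alternative, but few calls were stable. Of the values of named members under alternatives, 345 stayed on their side of the threshold, 105 lost a call and 8 gained one. These include F tests, which have no direction. Most of the 345 belong to comparisons that were not called in the main fit and stayed so. Without 1 mouse at a time the members called ranged from 0 to 3 for Ang II against Control, 0 to 6 for ethoxysanguinarine, 0 to 3 for baicalin, 0 to 1 for gastrodin, 0 to 1 for valsartan and 0 to 5 in the F test. Members past the study's thresholds ranged from 28 to 45, 40 to 50, 35 to 48, 23 to 36 and 28 to 37 in the 5 comparisons in that order.

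The main counts of called members were 1, 1, 2, 1 and 0 in the same order and 3 in the F test. The shares of all transcripts printed above belong to the main fits. Shares under the alternatives, or without a mouse, are not given. Counts under these settings therefore describe the members only, and do not show whether other transcripts changed likewise. For Ang II against Control the fit of all 6 groups gave 7 and a filter at a mean of 5 gave 0. For ethoxysanguinarine both gave 0. MERGE.10563.1 and MERGE.19959.1, the main calls of these comparisons, were not tested under the filter at a mean of 5. Their calls could therefore not be kept there. For baicalin the fit of all groups gave 5, none of them the 2 main calls. Quantile normalization, no filter, and loci with a single model in any table gave 1, and limma without the trend and a pseudocount of 0.1 gave 0. Of the 2 main calls, 1 thus lies at a locus with further models in some tables. For gastrodin the fit of all groups, no filter and a filter at a mean of 5 gave 0. For valsartan array weights gave 1. The F test gave 7 after quantile normalization and 1 with array weights or a filter at a mean of 5. With that filter MERGE.23625.1 and MERGE.11126.1 were not tested.

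Some alternatives were chosen after seeing the data. Without mice 5114, 5131, 5138, 5141 and 5156 the number called was 0 in each comparison and in the F test, without mice 5113 and 5154 it was 0 for baicalin, and among members at 0.5 or more in all groups it was 0 for Ang II against Control. Leaving out mice also leaves fewer samples in the fit. MERGE.10563.1, the only member called between Ang II and Control, was not tested without mice 5114, 5131, 5138, 5141 and 5156. Its Ang II mean of 0.238 FPKM also keeps it out of the set at 0.5 or more. It could therefore be called in neither.

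Members past the study's thresholds numbered 37, 56, 46, 29 and 29. A fold change of 1.5 gave 104, 99, 100, 67 and 63, and a filter at a mean of 5, which tests 374 to 400 members, gave 7, 21, 10, 6 and 4. A pseudocount of 0.1 gave 76 for Ang II against Control, 47 for gastrodin and 49 for valsartan. For valsartan no filter gave 46 and the fit of all groups 49. The cause of these changes was not tested, apart from the number of members a setting tests. Depth is unknown, so no limit of detection can be set for a listed 0. No paired analysis was possible because the labels tie no mouse of a group to a mouse of another.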
